A study of Mus musculus with 59 samples.

Results

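The nuclear genes of oxidative phosphorylation were followed in single E6.25 mouse epiblasts that lacked Ehmt2 or Ezh2 and in controls of the same crosses. The members were the protein-coding nuclear genes whose symbol carries a subunit name of respiratory complex I (Ndufa, b, c, s or v with a number), complex II (Sdha to Sdhd), complex III (Uqcr), complex IV (Cox4 to Cox8 directly followed by a, b or c) or complex V, the ATP synthase (Atp5). They came to 81 genes out of 22134 with a listed transcript, 37 in complex I, 4 in complex II, 8 in complex III, 15 in complex IV and 17 in complex V. Cox6a2, the heart and skeletal muscle isoform of a cytochrome c oxidase subunit, fits the rule but was listed in none of the 14 libraries. Each gene was represented by its transcript with the highest mean count, out of 267 listed member isoforms. For 5 members, among them Ndufa3, Ndufb7, Ndufb10 and Cox6c, that transcript was annotated as a retained intron and not as protein-coding.

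Oxidative phosphorylation takes electrons from NADH at complex I and from succinate at complex II, passes them through complex III and cytochrome c to oxygen at complex IV, and uses the proton gradient so built to make ATP at complex V. Complexes I, III, IV and V combine subunits encoded in the mitochondrial genome with a larger set encoded in the nucleus, while complex II is built from nuclear genes alone. The pathway is active in nearly every cell, and in the early postimplantation embryo it runs beside a high rate of glycolysis.

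Ehmt2 encodes the histone methyltransferase G9a, and Ezh2 the catalytic subunit of Polycomb repressive complex 2. The epiblasts came from matings of heterozygous parents, and the Ehmt2 line also carried the ΔPE-Pou5f1-EGFP reporter, which makes EGFP in the inner cell mass. There were 4 controls (G9a+/+ in the labels) and 4 knockouts (G9a-/-) in the Ehmt2 cross, and 3 controls (Ezh+/+) and 3 knockouts (Ezh-/-) in the Ezh2 cross, from 4 and 3 litters. The labels call the controls +/+, while the study's descriptions of both comparisons also admit +/- embryos as controls. The Ehmt2 line came from a published conditional allele and the Ezh2 line from a previously described one, and the litter and sex of each epiblast are not given in the sources used here. Each library was made from 750 pg of RNA of 1 whole dissected epiblast, so fewer cells of a type and less RNA per cell cannot be told apart.

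The libraries held 30161171 to 68464895 counts, and the members 112116 to 373945. Ehmt2 RNA was at 10.5 to 34.1 CPM (counts scaled to a common library size) in its controls and 3.29 to 9.79 in its knockouts, and Ezh2 RNA at 51.6 to 108 CPM against 11.4 to 16.0, as the labels say. The 7 epiblast markers (Pou5f1, Sox2, Nanog, Otx2, Fgf5, Utf1 and Dnmt3b) were present in every library, summing to 2392 to 2752 CPM in the Ehmt2 controls and 1422 to 2160 in the Ehmt2 knockouts. Dnmt3b alone was at 1629 to 2070 and 988 to 1424 CPM there. By the fitted change 6 of the 7 were lower in the Ehmt2 knockouts, beside 6725 of 13749 genes, and 1 was higher. None of the 7 passed the test described below, edgeR's at an adjusted p of 0.05, but the smallest adjusted p was 0.0548. At an unadjusted p under 0.05 from edgeR 4 of the 7 were lower, beside 6.86% of all genes. The median log2 fold change of the 7 was -0.44. In the Ezh2 cross the sums were 2281 to 2503 CPM in controls and 1839 to 2417 in knockouts. Ezh2 control 2 and Ezh2 knockout 1 stood apart with 1101 and 2520 CPM summed over 9 visceral endoderm markers, against at most 53.6 in the other libraries. Control 4 and knockout 4 of the Ehmt2 cross stood apart in the members themselves, as described after the comparisons, and the column names of the study's own results compare knockout 4 with control 4, although its methods text describes each knockout against all controls. The fit of the Ehmt2 cross therefore had a term for this comparison set.

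In the 7 controls the members were among the more abundant transcripts. Of the 81, 77 were above 1 CPM on average, and per kb of transcript 73 of them lay above the median, and 46 in the top 10%, of the 11491 genes above that level. Their median was 28.8 CPM per kb, beside 3.59 for all of those genes. The mean levels ran from 12.5 to 52.3 CPM per kb in complex II and from 15.1 to 96.2 in complex III, and more widely in complexes I, IV and V.

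**Figure D1:**
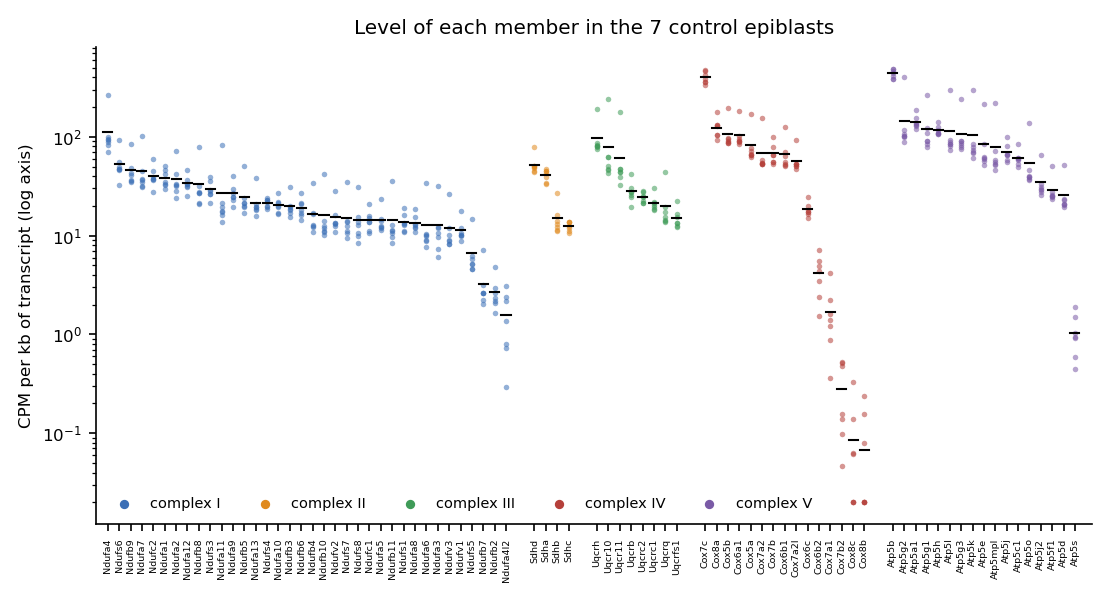
Level of the members in the 7 control epiblasts, in CPM per kb of transcript on a log axis, grouped by complex and sorted within it; points are single epiblasts, black bars their mean, and a library with 0 counts is drawn at the lower edge. Atp5b and Cox7c lead, while the restricted paralogs Cox6b2, Cox7a1, Cox7b2, Cox8b and Cox8c close the complex IV block.

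Atp5b, the catalytic beta subunit of ATP synthase, had the highest level of all members, with 438 ± 45.2 CPM per kb (SD over the 7 controls). Its partner in the catalytic head, Atp5a1, stood at 143 ± 22.0, so that the beta transcript exceeded the alpha transcript by 3.06 times per kb. Atp5b alone made up 20.4 to 24.1% of the summed member CPM in the controls other than Ehmt2 control 4, where it made up 14.6%. The 3 genes for the same c-ring subunit, Atp5g1, Atp5g2 and Atp5g3, were at 121 ± 65.5, 146 ± 115 and 107 ± 60.1 CPM per kb. Their spreads over the 7 controls overlap. Ehmt2 control 4 widened these spreads, with Atp5g2 at 178 CPM there and 38.95 to 51.52 in the other controls. In Ehmt2 controls 1 to 3 the 3 genes were at 106 ± 19.7, 109 ± 7.46 and 85.3 ± 5.74 CPM per kb. Atp5s, a factor associated with the ATP synthase, was the lowest member of this complex at 1.04 ± 0.499 CPM per kb.

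Complex IV was led by Cox7c, a small structural subunit, at 399 ± 52.7 CPM per kb. Cox5a, a core-associated nuclear subunit, was at 83.2 ± 39.3 and Cox6b1, which faces the intermembrane space, at 67.4 ± 27.2. In complex III the hinge protein gene Uqcrh led with 96.2 ± 41.2 CPM per kb, and the Rieske iron-sulfur protein gene Uqcrfs1 was lowest with 15.1 ± 3.45. The core gene Uqcrc1 was at 21.5 ± 4.23. Complex II was led by the membrane anchor Sdhd at 52.3 ± 11.9, followed by the flavoprotein Sdha at 41.1 ± 5.39, the iron-sulfur subunit Sdhb at 15.1 ± 5.66 and the second anchor Sdhc at 12.5 ± 1.33. The ranges of Sdhd and Sdha over the 7 controls overlapped, and so did those of Sdhb and Sdhc.

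Complex I had its highest level at Ndufa4, 113 ± 67.4 CPM per kb, a gene named for complex I whose protein is now placed in complex IV. The core genes Ndufs1 and Ndufv1, which carry electrons from NADH towards ubiquinone, stood at 13.8 ± 2.89 and 11.4 ± 2.95 CPM per kb. Ndufa4l2, the hypoxia-inducible relative of Ndufa4, was lowest at 1.55 ± 1.03. Ndufa4 exceeded it by 72.7 times per kb.

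The paralog pairs of complex IV separated sharply by level, and the broadly expressed form of each was the abundant one. Cox6b1 exceeded Cox6b2, its testis form, by 16.0 times per kb, and Cox7b exceeded its testis form Cox7b2 by 243 times. Cox7a2 exceeded the heart and muscle form Cox7a1 by 40.7 times. Cox8b, another heart and muscle form, had 0 to 4 counts in a library, and the testis form Cox8c had 0 to 13 in all but 1, Ehmt2 knockout 4 with 66. A library with 0 counts allows up to 3, which is 0.0501 to 0.0933 CPM, and this covers counting error only.

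The promoters of Cox6b1 and Cox6b2 and of Cox7b and Cox7b2 are shown, each pair a broadly expressed gene beside a restricted one. That of Cox6a1 is shown without a partner, since Cox6a2 was listed in no library. RefSeq promoter sequences on GRCm38.p6, 250 bases before to 50 after a start site, were found for 68 of the 81 members. They were searched on both strands for the NRF1 motif GCGCATGC, the ETS motif CCGGAAG and the YY1 motif AAGATGGC, which are known from promoters of respiratory genes, and matches are in capitals; the NRF1 match in Cox6a1 reads as 10 capitals because the motif and its reverse complement overlap there. They are Cox6a1 at chr5:115348909-115349208 (minus strand), Cox6b1 at chr7:30626065-30626364 (minus), Cox6b2 at chr7:4753045-4753344 (minus), Cox7b at chrX:106015450-106015749 (plus) and Cox7b2 at chr5:71548156-71548455 (minus).
Cox6a1: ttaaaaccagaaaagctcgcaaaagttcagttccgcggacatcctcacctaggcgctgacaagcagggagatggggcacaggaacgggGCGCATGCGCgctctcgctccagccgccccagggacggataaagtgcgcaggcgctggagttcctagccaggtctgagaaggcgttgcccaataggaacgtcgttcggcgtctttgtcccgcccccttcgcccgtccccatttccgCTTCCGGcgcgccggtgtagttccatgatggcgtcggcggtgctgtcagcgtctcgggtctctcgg
Cox6b1: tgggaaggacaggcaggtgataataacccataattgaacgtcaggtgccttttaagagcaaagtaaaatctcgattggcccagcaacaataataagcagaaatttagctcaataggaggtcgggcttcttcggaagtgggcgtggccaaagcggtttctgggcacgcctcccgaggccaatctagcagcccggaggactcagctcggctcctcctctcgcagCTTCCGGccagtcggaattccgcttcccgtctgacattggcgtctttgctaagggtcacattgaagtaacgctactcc
Cox6b2: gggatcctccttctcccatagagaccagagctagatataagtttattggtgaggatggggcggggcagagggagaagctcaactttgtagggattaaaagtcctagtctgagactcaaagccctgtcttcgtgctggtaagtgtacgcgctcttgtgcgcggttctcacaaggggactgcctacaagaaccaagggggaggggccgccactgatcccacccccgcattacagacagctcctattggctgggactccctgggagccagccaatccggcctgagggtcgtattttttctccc
Cox7b: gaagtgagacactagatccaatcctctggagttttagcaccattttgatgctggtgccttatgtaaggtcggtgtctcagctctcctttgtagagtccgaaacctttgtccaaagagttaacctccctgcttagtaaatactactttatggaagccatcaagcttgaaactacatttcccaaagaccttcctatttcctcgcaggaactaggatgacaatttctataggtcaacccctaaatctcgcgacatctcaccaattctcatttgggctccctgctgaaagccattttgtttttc
Cox7b2: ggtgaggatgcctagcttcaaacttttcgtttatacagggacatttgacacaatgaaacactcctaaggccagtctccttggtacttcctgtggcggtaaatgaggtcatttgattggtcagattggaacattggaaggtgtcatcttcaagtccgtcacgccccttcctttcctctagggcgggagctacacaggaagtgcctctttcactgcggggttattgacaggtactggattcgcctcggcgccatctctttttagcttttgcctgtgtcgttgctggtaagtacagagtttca
Cox6a1 holds an NRF1 and an ETS match and 32 CpG sites, and Cox6b1 an ETS match and 17 CpG sites. Cox6b2 and Cox7b2 hold none of the 3 motifs and 10 CpG sites each, and the abundant Cox7b holds none either and only 5 CpG sites. The promoters of the pair Cox7a2 and Cox7a1, which are not shown, hold none of the 3 motifs. Over the members with a sequence, 14.7% had the NRF1 motif in a promoter, beside 3.93% of 17491 protein-coding genes with a RefSeq promoter, 23.5% beside 12.9% had the ETS motif, and 14.7% beside 3.57% the YY1 motif. The SP1 motif GGGCGG was in 41.2% beside 49.2%, and CCAAT in 44.1% beside 42.3%. These are matches of letters and not sites of binding. Members other than the restricted paralogs had a median of 19.5 CpG sites, beside 15.0 for the protein-coding genes. The part of CpG content in the motif shares was not tested.

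No oxidative phosphorylation gene passed the test after loss of Ehmt2, and the median estimate lay close to 0 in every complex. Of the 81 members 79 passed the filter on low counts (Cox8b and Cox8c did not), and 0 of 79 passed an adjusted p of 0.05 in edgeR's quasi-likelihood test (Benjamini-Hochberg over all 49872 tested transcripts), beside 1.11% of all genes tested. At an unadjusted p under 0.05 there were 1 higher and 4 lower, that is 1.27% and 5.06% of the members, beside 8.58% and 6.86% of all genes; DESeq2 also gave 0 members below an adjusted p of 0.05. The members split into 37 above and 42 below the controls, with a median log2 fold change of -0.01, beside 0.01 over all genes. The median was -0.03 in complex I, 0.05 in complex II, -0.02 in complex III, 0.10 in complex IV and 0.02 in complex V.

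The precision behind this was higher than for most genes, and so were the members' levels, whose part in it was not tested. The 95% interval of the fold change lay within 2-fold in both directions for 74 of the 79 members (93.7%), beside 57.3% of all genes tested. It lay within 1.5-fold for 58 of them (73.4%), beside 30.8% of all genes. The exceptions at 2-fold were the low members Atp5s, Cox6b2, Cox7a1, Cox7b2 and Ndufa4l2. The narrowest interval was that of Atp5b, 0.02 on the log2 scale (-0.13 to 0.16), at 934, 848, 884 and 938 CPM in the controls and 878, 889, 908 and 967 in the knockouts. Atp5a1, with -0.01 (-0.23 to 0.20), was the next narrowest. At the log2 fold change of 1.4 that the study required of a changed gene, 75 of 79 intervals lay wholly inside the limit. The share of all genes inside it was not computed.

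**Figure D2:**
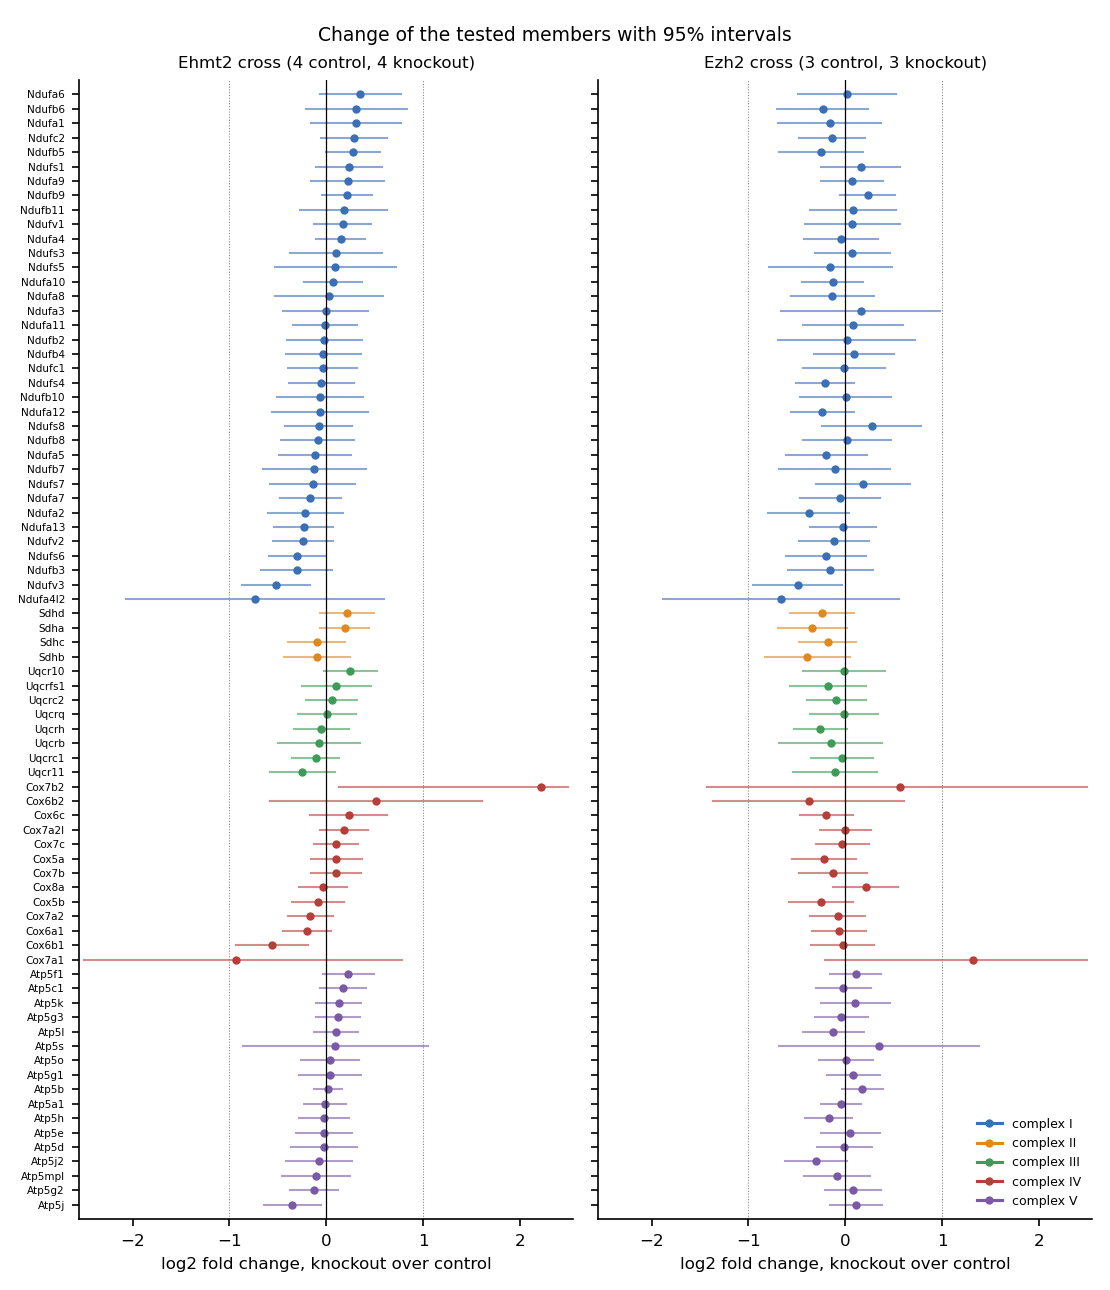
Log2 fold change of knockout over control for the tested members in the Ehmt2 cross (left) and the Ezh2 cross (right), with 95% intervals from edgeR's quasi-likelihood fit, cut at 2.5 where they run past the axis; dotted lines mark a 2-fold change and colours the complex. Points gather around 0 in both crosses, and the wide intervals belong to Ndufa4l2, Cox7b2, Cox6b2, Cox7a1 and Atp5s.

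Cox6b1 (GRCm38 chr7:30616861-30626151, minus strand) was lower in the Ehmt2 knockouts by the estimate but did not pass. It was at 43.6, 34.0, 32.4 and 78.4 CPM in controls 1 to 4 and 33.5, 25.3, 26.6 and 35.6 in knockouts 1 to 4. In replicates 1 to 3 the groups overlapped only through knockout 1, and the fourth pair was the farthest apart. The log2 fold change was -0.56 ± 0.17 (SE), with an unadjusted p of 0.00698 and an adjusted p of 0.21 from edgeR. In replicates 1 to 3 alone it was -0.37. In the Ezh2 cross Cox6b1 was at 39.4, 31.0 and 32.8 CPM in controls and 35.9, 35.0 and 30.3 in knockouts, with a log2 fold change of -0.03.

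Ndufv3 (chr17:31520118-31531331, plus strand), an accessory subunit of the NADH-binding arm of complex I, was the only member with an unadjusted p under 0.05 in both crosses. Controls 1 to 4 of the Ehmt2 cross had 13.0, 13.0, 16.1 and 42.2 CPM, and knockouts 1 to 4 had 8.70, 11.1, 11.4 and 24.4. Within each comparison set every knockout was below every control. The log2 fold change was -0.52 ± 0.16 with an unadjusted p of 0.00784 and an adjusted p of 0.218 from edgeR. In the Ezh2 cross it was at 18.7, 14.4 and 14.1 CPM in controls and 8.89, 11.9 and 12.7 in knockouts, again without overlap, with a log2 fold change of -0.49 ± 0.21, an unadjusted p of 0.0398 and an adjusted p of 0.69. The gene lies 3.37 Mb from Ehmt2 on chromosome 17, and the part of that distance in the result was not tested. Of the other 5 members on chromosome 17, the nearest, Ndufa7 at 1.06 Mb, had a log2 fold change of -0.17 (-0.48 to 0.15). The values were -0.06 for Ndufb10 at 10.2 Mb and -0.01 for Ndufa11 at 21.8 Mb. They were -0.24 for Ndufv2 at 31.2 Mb and 0.18 for Cox7a2l at 48.6 Mb.

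Atp5j, the coupling factor of the ATP synthase stalk, and Ndufs6, an accessory subunit of complex I, made up the other members with an unadjusted p under 0.05 in the lower direction. Atp5j was at 65.3, 52.5, 45.0 and 80.3 CPM in controls and 49.4, 39.9, 44.4 and 54.8 in knockouts, with groups that overlap in replicates 1 to 3. Its log2 fold change was -0.35 ± 0.14, with an adjusted p of 0.338 from edgeR. Ndufs6 was at 31.2, 26.6, 28.3 and 52.9 CPM in controls and 24.6, 19.8, 21.2 and 51.6 in knockouts, with a log2 fold change of -0.30 ± 0.13 and an adjusted p of 0.412. Every Ndufs6 knockout was below the controls of its set, but the fourth pair was nearly level. With Ndufv3 and Cox7a2 it formed the 3 members (3.80%) whose knockouts were all lower within their set, beside 5.43% of all genes. The 1 member with all knockouts higher, Ndufa6 (1.27%), stands beside 6.39% of all genes.

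Cox7b2 (chr5:71442824-71548205, minus strand), the testis form of Cox7b, had the largest estimated increase in the Ehmt2 knockouts. It had 1, 12, 2 and 4 counts in controls 1 to 4 and 3, 23, 12 and 79 in knockouts 1 to 4, or 0.103 and 0.596 CPM on average. Knockout 4 held most of these counts, and control 2 had as many as knockout 3. The fitted log2 fold change was 2.21 with a 95% interval of 0.13 to 4.29 and an adjusted p of 0.393 from edgeR, and it was 1.59 in replicates 1 to 3 and 3.46 without control 2. Cox8c, the other testis form, had 9 counts summed over the controls and 81 over the knockouts, 66 of them in knockout 4. Without the filter on low counts its log2 fold change was 2.05 (-1.19 to 5.29; adjusted p = 0.67 from edgeR). Cox6b2 was at 0.852, 1.33, 2.75 and 2.44 CPM in controls and 3.23, 4.57, 1.98 and 1.22 in knockouts, with overlapping groups and a log2 fold change of 0.51 (-0.58 to 1.61). The abundant partners did not pass either: Cox7b had a log2 fold change of 0.10 (-0.16 to 0.36) and Cox8a one of -0.04 (-0.28 to 0.21).

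**Figure D3:**
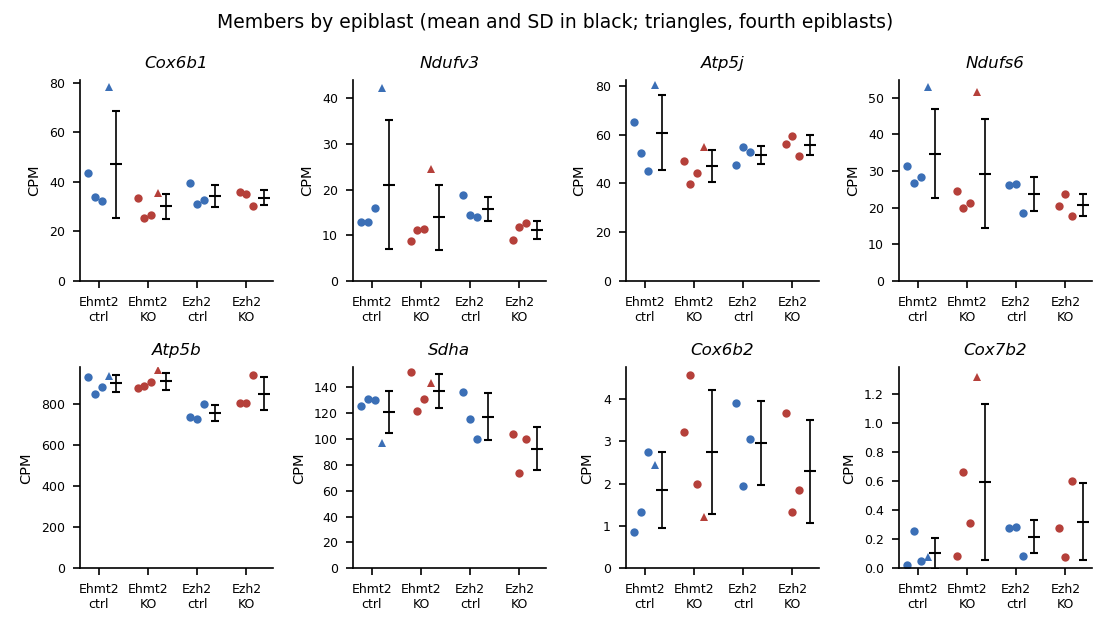
CPM of 8 members in each epiblast, by cross and genotype, on axes that start at 0; circles are replicates 1 to 3, triangles the fourth epiblasts of the Ehmt2 cross, and black bars the mean and SD of each group. The fourth epiblasts lie above the first 3 for Ndufv3 and Ndufs6 in controls and knockouts alike.

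After loss of Ezh2 the median estimate again lay near 0, but some low members lay farther out. Cox7a1 had a log2 fold change of 1.32, beside -0.93 in the Ehmt2 cross and -2.25 for the Ehmt2 effect minus the Ezh2 effect. Ndufa4l2 was at -0.66, beside -0.73 in the Ehmt2 cross. None of the 79 members passed an adjusted p of 0.05 (0 in DESeq2 as well), beside 0.00714% of all genes tested, which was 1 gene. At an unadjusted p under 0.05 there were 0 higher and 2 lower (2.53%), Ndufv3 among them, beside 5.50% and 3.39% of all genes. The members split into 28 above and 51 below the controls, with a median log2 fold change of -0.04, beside 0.03 over all genes. The intervals lay within 2-fold for 74 of 79 members, beside 55.1% of all genes. All knockouts were above all controls for 2 members (2.53%), Atp5b and Ndufb9, beside 7.66% of all genes. They were below them for 8 members (10.1%), among them Atp5h, Atp5j2, Cox5b, Ndufa2, Ndufs4, Ndufv3 and Uqcrh, beside 6.55% of all genes.

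Complex II and complex III lay below the controls in all their members in the Ezh2 cross, 4 of 4 and 8 of 8, beside 46.0% of all genes, although none of them passed. Of the 8 in complex III, Uqcr10, Uqcrq and Uqcrc1 were within 0.04 of 0 at -0.01, -0.01 and -0.03, and Uqcrc1 turned positive under some settings. The complex II median was -0.29 and the complex III median -0.10 on the log2 scale. Sdha was at 136, 115 and 100 CPM in controls and 104, 73.4 and 100 in knockouts, with overlapping groups. Its log2 fold change was -0.34 (-0.70 to 0.02; adjusted p = 0.728 from edgeR). Knockout 2 was the lowest library for Sdha, Sdhb, Sdhc and Sdhd alike. Sdhb had a log2 fold change of -0.39 (-0.83 to 0.05), Sdhd one of -0.24 (-0.58 to 0.09) and Sdhc one of -0.18 (-0.47 to 0.12). The summed level of complex II was 249, 234 and 218 CPM in controls and 208, 158 and 207 in knockouts, without overlap, and knockout 2 was the farthest from the controls. Complex III was also lower without overlap, but barely, at 217.8, 213.4 and 218.9 CPM against 199.2, 213.1 and 189.9. Complex V was higher without overlap, at 1718, 1714 and 1726 CPM against 1775, 1770 and 1854. The sums of complexes I and IV overlapped. How often sums of other genes separate was not tested. Leaving out both libraries with visceral endoderm RNA, Ezh2 control 2 and Ezh2 knockout 1, gave 0 members below an adjusted p of 0.05 and a member median of -0.05.

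The difference between the effects of the 2 losses was tested directly, and 0 of 79 members passed an adjusted p of 0.05 in edgeR (0 in DESeq2 as well), beside 0.118% of all genes. At an unadjusted p under 0.05, 3 members had the larger value in the Ehmt2 cross (3.80%) and 2 the smaller (2.53%), beside 4.73% and 5.61% of all genes. The 3 were Sdha, with a difference of 0.53 on the log2 scale (0.10 to 0.96; adjusted p = 0.495), Ndufb5, an accessory subunit of complex I, with 0.53 (0.04 to 1.01), and Sdhd with 0.46 (0.02 to 0.89). The 2 were Cox6b1, with -0.53 (-1.04 to -0.02), and Atp5j, with -0.46 (-0.86 to -0.06). In the Ehmt2 cross Sdha had been at 125, 131, 130 and 96.9 CPM in controls and 151, 122, 131 and 143 in knockouts. Over the 79 members, 15 were above the controls in both crosses, 29 below in both and 35 opposite, so that 55.7% had the same sign, beside 52.6% of all genes tested in both.

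Over the 14 epiblasts, complex V held 46.1 to 52.3% of the members' summed CPM and complex I 17.6 to 22.6%. Complex II held 4.05 to 7.03%, with the lowest shares in Ehmt2 control 4, Ezh2 knockout 2 (4.53%) and Ehmt2 knockout 4. In the Ehmt2 cross the 81 members summed to 3989, 3697 and 3666 CPM in controls 1 to 3 and 4115, 3546 and 3994 in knockouts 1 to 3. Control 4 and knockout 4 reached 6408 and 6245 CPM, so that the fourth pair differed from the rest and not from each other. In the Ezh2 cross the sums were 3538, 3579 and 3519 CPM in controls and 3485, 3484 and 3548 in knockouts. The ratio of knockout to control was 1.03 in replicates 1 to 3 of the Ehmt2 cross, 0.975 in the fourth pair and 0.989 in the Ezh2 cross.

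**Figure D4:**
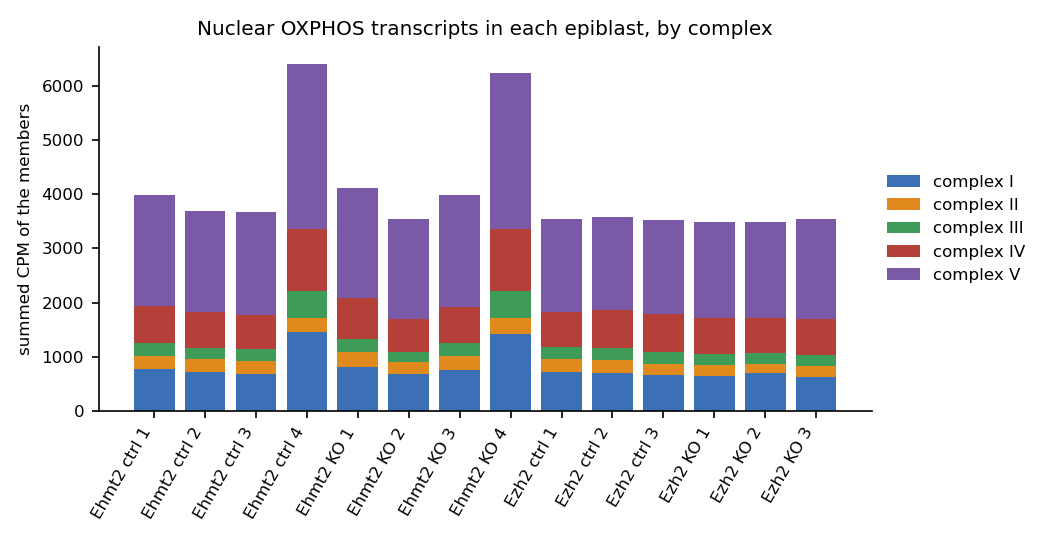
Summed CPM of the 81 members in each of the 14 epiblasts, stacked by complex. Control 4 and knockout 4 of the Ehmt2 cross reach 6408 and 6245 CPM, while the other 12 libraries lie between 3484 and 4115.

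The higher member levels of the fourth Ehmt2 epiblasts were seen in the control and in the knockout, each a single library, so they are given as values with no test. Against the mean of replicates 1 to 3, on the log2(CPM + 0.5) scale, the median member was 2.00 times higher in control 4 and 1.85 times higher in knockout 4, beside 1.06 and 1.09 times over all genes tested. Of the 79 tested members, 67 (84.8%) were higher in both of the fourth epiblasts, beside 38.1% of all genes. By more than 2-fold in both there were 24 (30.4%), beside 4.12% of all genes. No member was lower by more than 2-fold in both, and only 2.09% of all genes were. Uqcr10, a small subunit of complex III, was at 26.98, 22.1, 19.8 and 104 CPM in controls 1 to 4 and 29.3, 25.9, 27.2 and 121 in knockouts 1 to 4. Cox5a went from 42.5, 42.6 and 43.2 to 111 CPM in the controls and from 51.6, 36.6 and 46.9 to 126 in the knockouts. The summed level of complex III was 2.27 times that of controls 1 to 3 in control 4, and complex I 2.01 times. Complex II was at 1.08 times, because Sdha and Sdhc were below controls 1 to 3 on this scale while Sdhb and Sdhd were above them.

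**Figure D5:**
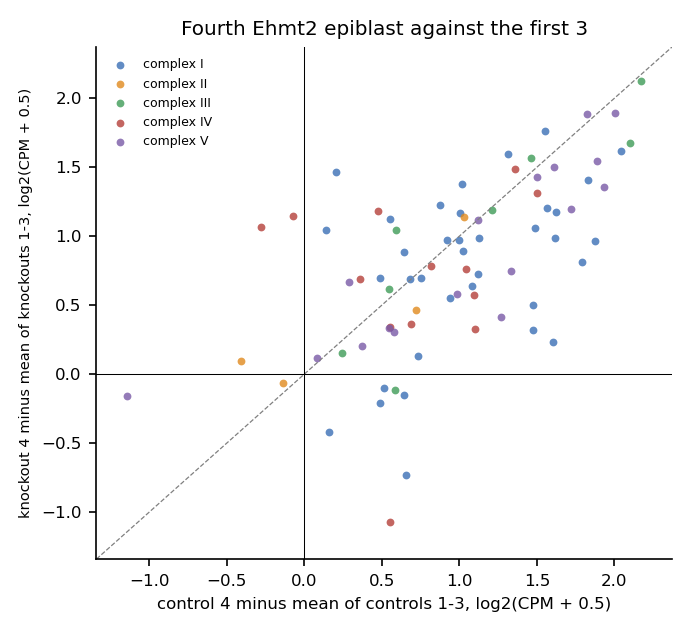
Difference of the fourth Ehmt2 epiblast from the mean of the first 3 on the log2(CPM + 0.5) scale, controls on the x axis and knockouts on the y axis, 1 point for each tested member plotted, coloured by complex; the dashed line marks equal differences. Most points lie above 0 on both axes.

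The cytoplasmic ribosomal protein genes, another group of short and abundant transcripts, were also higher there, with medians 2.53 and 2.07 times higher in the fourth control and knockout. The members' transcripts are short, with a median length of 838 bases beside 3046 for all genes tested. Across the 79 members the difference in control 4 was larger for shorter transcripts, with a Spearman rho of -0.40 and a Pearson r of -0.39 against log length, and over all 13749 genes rho was -0.30; these are correlations across genes, which are not independent replicates. The fourth libraries were also the deepest of the series. They alone carry a row of unaligned reads in their deposited tables. The part of these features in the difference was not tested. Against the fold change of the Ehmt2 knockouts, transcript length had a rho of 0.04 across the members.

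Within a group the members had a lower median spread between epiblasts than all genes did, which was not tested, nor was the part of their higher levels in it. Their median coefficient of variation was 9.64% in Ehmt2 controls 1 to 3 and 11.1% in the Ezh2 controls, beside 15.8% and 17.1% for all genes above 1 CPM. In Ehmt2 knockouts 1 to 3 and the Ezh2 knockouts it was 12.2% and 11.3%, beside 17.9% and 18.1%. With the fourth epiblast included, the members' median was 42.3% in the Ehmt2 controls and 37.0% in the Ehmt2 knockouts, above those of all genes, 23.8% and 28.0%.

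The partners of the members in the respiratory chain also stayed below the threshold of the test. Of the subunits with other symbols, Ndufab1 had a log2 fold change of 0.00 in the Ehmt2 cross and 0.12 in the Ezh2 cross, Cyc1 0.06 and 0.29, and Cox4i1 -0.05 and 0.03. Cox4i2, a paralog of Cox4i1, did not pass the low-count filter within either cross. It had 1, 8, 11 and 20 counts in the Ehmt2 controls and 0, 1, 0 and 0 in the knockouts, and 10, 3 and 2 against 5, 35 and 31 counts in the Ezh2 cross. The difference between its effects had an unadjusted p of 0.0015 and an adjusted p of 0.272 from edgeR. Of the 13 subunits encoded in the mitochondrial genome 8 were tested. All 8 were above the controls in the Ehmt2 cross, beside 7024 of 13749 genes tested, with a median of 0.24 on the log2 scale. None passed, with a smallest adjusted p of 0.166 from edgeR. At an unadjusted p under 0.05 there were 4, beside 8.58% of all genes in the higher direction. In the Ezh2 cross 7 of the 8 were above the controls, beside 7560 of 14010 genes. Their median there was 0.24, with a smallest adjusted p of 0.797 from edgeR. These 8 are not independent replicates, and mt-Nd3 among them was at only 0.196 to 1.42 CPM. The other 5, mt-Co2, mt-Co3, mt-Atp6, mt-Atp8 and mt-Nd4l, were below 0.1 CPM in every library while mt-Co1 was at 1362 CPM or more, so their counts do not give a level.

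Cytochrome c, the carrier between complexes III and IV, has a somatic gene, Cycs, and a testis gene, Cyct. Cyct was at 2.65, 0.386, 0.695 and 4.97 CPM in the Ehmt2 controls and 8.53, 5.21, 5.25 and 10.2 in the knockouts, with a log2 fold change of 2.01 (0.88 to 3.14; adjusted p = 0.127 from edgeR). All 4 knockouts were above all 4 controls, but narrowly, with 5.21 CPM in the lowest knockout and 4.97 in the highest control. The share of all genes apart by this rule was not computed. Within comparison sets every knockout was higher for 6.39% of all genes. In the Ezh2 cross it was at 0.336, 0.685 and 0.170 CPM in controls and 0.435, 9.46 and 0.315 in knockouts, so that 1 library carried the estimate of 3.09. Cycs had a log2 fold change of 0.24 (0.03 to 0.46; adjusted p = 0.359) in the Ehmt2 cross and -0.06 in the Ezh2 cross.

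Assembly factors and regulators likewise had 0 genes below an adjusted p of 0.05 in both crosses. The assembly factors of complexes I to V numbered 14, 4, 6, 19 and 3 tested genes. Ndufaf3 of complex I assembly had the lowest p among them in the Ehmt2 cross, with a log2 fold change of -0.79 (-1.26 to -0.32, adjusted p = 0.148 from edgeR). Of the 6 for complex III, 5 were lower there, 2 of them at an unadjusted p under 0.05 from edgeR, beside 6.86% of all genes. Their estimates had a median of -0.37 and a lowest value of -3.12. Lyrm7 among them had 37, 13, 26 and 65 counts in the controls and 6, 0, 8 and 0 in the knockouts. In the Ezh2 cross 2 of the 6 were lower, with a median of 0.05. Nrf1, a transcription factor of respiratory genes, was above the controls in the Ezh2 cross by 0.54 (0.21 to 0.88; adjusted p = 0.515), and of the 14 and 15 biogenesis regulators tested in the Ehmt2 and Ezh2 crosses it alone had an unadjusted p under 0.05. Beside these groups, the extraembryonic ectoderm markers, which are genes of the neighbouring tissue, held 2 of 7 genes that rose in the Ehmt2 knockouts, Elf5 and Tfap2c, beside 0.902% of all genes, and 5 of 7 with an unadjusted p under 0.05; the median log2 fold change was 2.51. Both genes had 0 counts in knockout 4, so the higher levels were in knockouts 1 to 3. The list summed to 23.4 to 125 CPM in the controls and 17.0 to 231 in the knockouts. Without Eomes, its most abundant gene, it summed to 4.81, 3.65, 7.22 and 1.22 CPM in controls 1 to 4 and 112, 30.5, 40.3 and 0.434 in knockouts 1 to 4. Its part in the members' values was not tested.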

How the data were processed

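RNA-seq of 14 single E6.25 epiblasts was analysed. Per the labels and methods, the authors amplified 750 pg of RNA, trimmed reads to 40 nt, aligned them to GRCm38/mm10 with TopHat2 and obtained counts per Ensembl release 74 transcript with HTSeq, and these raw counts were deposited. A read shared by isoforms, or by a gene and its processed pseudogenes, cannot be split by such counts, so member levels are uncertain by that share. The row of unaligned reads of 2 libraries (12.6 and 13.3% of their totals) was dropped.

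Transcripts were named from GENCODE vM21 (70021 of 72515 matched). The members, gene lists and tests were chosen with earlier results of these data known. Counts were tested with edgeR 4.0.16 (quasi-likelihood, TMM, filterByExpr at a minimum count of 10, with a term for comparison set in the Ehmt2 cross) over all transcripts; background shares use 1 transcript per gene. CPM in the text is scaled by TMM over the 14 libraries. DESeq2 1.42.0 and other settings were alternatives, and the fit was tested on simulated data. Libraries of a group differed beyond sampling noise (chi-square per degree of freedom of 16.7 or more). Whether controls and knockouts with the same number share a litter is not given, so p-values measure the spread between these embryos. Named members were those past the threshold, up to 5 largest increases and decreases per cross at an unadjusted p under 0.05, the highest and lowest level of each complex, restricted paralogs with their partners, and core subunits. The values of 1 member are not reported here, and it is left out of the plots of single members, but it is part of the counts, medians and sums. Other members and pathway genes, such as Ndufa6, Uqcr10, Ndufb5, Ndufa7, Cyct, Ndufaf3 and Lyrm7, were named after their values were seen.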

Additional observations from a re-analysis of the deposited data

Results flagged for a closer look

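In the Ehmt2 cross, 80 groups of 4 epiblasts (the members named by the rule, Uqcr10, and sums by complex and over all members, not all 81 members) were examined for a sample far from the other 3, and 31 held one, where chance gives about 1 in 20 groups. In 30 of the 31 it was control 4 or knockout 4, and these flags share 2 libraries. Among complex I genes, Ndufa4 was at 124 CPM in control 4 and 152 in knockout 4, and Ndufv3 at 42.2 and 24.4. Ndufs6 stood out in knockout 4 at 51.6 CPM and Ndufv1 in control 4 at 29.4. Among complex II genes, Sdhd stood out in control 4 at 96.6 CPM and Sdhb in knockout 4 at 31.1, while Sdha in control 4, at 96.9, was the lowest and not the highest of its group. Uqcrc1 stood out in knockout 4 at 48.6 CPM and Uqcrh in control 4 at 104, and Uqcr10 was at 104 and 121 in control 4 and knockout 4. Uqcr10 was added after its values were seen.

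In complex IV, Cox5a was at 111 and 126 CPM in control 4 and knockout 4 and Cox7a2 at 102 and 82.7. Cox6a1 and Cox7a2l stood out in control 4 at 105 and 104. The c-ring genes Atp5g2 and Atp5g3 were at 178 and 175 CPM in control 4 and 136 and 183 in knockout 4. Summed over members, control 4 stood out in complex I at 1447 CPM, complex II at 259.5, complex III at 509.8, complex IV at 1148, complex V at 3043 and all members at 6408, and knockout 4 in complex III at 500.9. The remaining flag was Cox8b in control 2, at 0.0859 CPM from 4 counts, with 0 counts in the other 3 controls.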

How the results depend on the processing

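No member passed an adjusted p of 0.05 in any of the 3 comparisons under any setting run. Members with an unadjusted p under 0.05 numbered 5 in the Ehmt2 cross, 2 without the comparison set term and 3 to 8 with 1 replicate left out. They numbered 2 in the Ezh2 cross, 4 with 1 transcript per gene, 1 with the highest protein-coding isoform and 1 to 5 with 1 replicate left out. For the difference they numbered 5, 3 with Ehmt2 replicates 1 to 3 only and 2 to 7 with 1 replicate left out. The Ezh2 median log2 fold change ranged from -0.1049 to -0.0443 with 1 replicate left out and was -0.0064 when scaled by total counts only, and the Ehmt2 median lay between -0.0494 and 0.0598 over all settings, so its sign is not set. The replicate block gave 4 members at an unadjusted p under 0.05 in the Ehmt2 cross and 2 in the Ezh2 cross, and changed no call; same-numbered libraries correlated at 0.0528 to 0.3612 and at -0.1162 to 0.1534, so not every pair was above 0.1 and the numbers were not taken as pairs, although control 4 and knockout 4, with the highest correlation, share their term for the comparison set. Of 96 named fold changes 65 kept their sign under every alternative. The lowest alternative adjusted p was 0.0654, for Cox6b1 with DESeq2. DESeq2 called more genes overall than edgeR, 394 higher and 231 lower against 124 and 28 in the Ehmt2 cross, 118 and 24 against 0 and 1 in the Ezh2 cross, and 68 and 81 against 10 and 8 for the difference; the cause was not tested. The protein-coding isoform, the left-out replicates of the difference and the left-out visceral endoderm libraries were added after seeing the data. With control 4 or knockout 4 left out, the set term leaves its partner without weight. Low counts limit Cox7b2, Cox8b and Cox8c.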
